A study of Mus musculus with 79 samples.

Results

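The genes described here are the cadherins and protocadherins, the calcium-dependent adhesion proteins of the cell surface. They were taken by symbol, as every row of the expression table named Cdh followed by a number or beginning with Pcdh. The rule gave 59 of 25899 gene symbols: 23 cadherins, 12 non-clustered protocadherins and 24 clustered protocadherins. The levels come from 79 libraries of ribosome-bound mRNA of mouse brain, made by bacTRAP, in which a tagged ribosomal protein is pulled down from a chosen cell class together with the mRNA it carries. All mice were heterozygous for a bacterial artificial chromosome transgene on a C57BL/6J background. The transgene encoded eGFP-tagged ribosomal protein L10a, driven by the promoter of the dopamine D1a receptor or of the D2 receptor. Each library pooled tissue of 3 mice, with both sexes in a pool, and the labels give no age. Whether the same animals supplied more than 1 region is not stated.

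The 5 groups combined a receptor and a region. Dorsal striatum had 15 D1 and 16 D2 libraries. Ventral striatum, punched from the nucleus accumbens, had 15 D1 and 14 D2 libraries, and prefrontal cortex had 19 D1 libraries. D2 libraries of prefrontal cortex were not analysed here. The promoter limits each group as a model: a library holds ribosomes of all cells in the dissected piece that use that promoter, and mRNA carried over from other cells is not removed. In such material a smaller number of cells of a type and a lower level per cell cannot be told apart.

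Classical cadherins bind the same or a closely related cadherin on the neighbouring cell, and their tails hold catenins that link them to actin. Type I members include N-cadherin (Cdh2) and R-cadherin (Cdh4); type II members (Cdh6 to Cdh12, Cdh18, Cdh20, Cdh22 and others) are expressed in restricted sets of brain nuclei and layers, and cadherin combinations are known for sorting neurons and matching synaptic partners. Non-clustered protocadherins of the delta-1 class (Pcdh1, Pcdh7, Pcdh9, Pcdh11x) and delta-2 class (Pcdh8, Pcdh10, Pcdh17, Pcdh18, Pcdh19) adhere more weakly, and delta-2 tails can recruit the WAVE actin regulator. Clustered protocadherins are encoded in neighbouring alpha, beta and gamma gene arrays, from which single neurons express different subsets that serve in self-recognition of dendrites and axons. In the alpha and gamma arrays the variable first exons are spliced to shared last exons, while each beta gene is a single-exon gene of its own.

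Promoter windows are shown for the 4 members that carry the main patterns below and whose window lies outside their annotated transcripts: Cdh8, higher in D2 and in dorsal striatum; Pcdh19, higher in ventral striatum; and Pcdh17 and Pcdh10, higher in D2. They were chosen after their values were seen. For Pcdh17 and Pcdh10 the ventral call depended on the model fitted, as given below. Each window is the 250 bases before the RefSeq start (build GRCm38.p6), read 5′ to 3′ on the gene's strand, with the GC box letters GGGCGG on either strand in capitals. The windows are chr8:99416472-99416721 on the minus strand (Cdh8), chrX:133688994-133689243 on the minus strand (Pcdh19), chr14:84443313-84443562 on the plus strand (Pcdh17) and chr3:45378148-45378397 on the plus strand (Pcdh10).
Cdh8: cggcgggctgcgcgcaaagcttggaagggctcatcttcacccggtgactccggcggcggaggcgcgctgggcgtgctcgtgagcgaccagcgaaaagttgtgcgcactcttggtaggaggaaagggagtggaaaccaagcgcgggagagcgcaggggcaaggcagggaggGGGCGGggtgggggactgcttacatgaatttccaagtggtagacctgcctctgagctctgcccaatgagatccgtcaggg
Pcdh19: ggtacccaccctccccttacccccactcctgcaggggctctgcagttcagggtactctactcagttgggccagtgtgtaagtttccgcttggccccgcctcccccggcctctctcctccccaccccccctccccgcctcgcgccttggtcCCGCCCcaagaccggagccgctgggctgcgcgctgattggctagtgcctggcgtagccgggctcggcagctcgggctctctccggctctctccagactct
Pcdh17: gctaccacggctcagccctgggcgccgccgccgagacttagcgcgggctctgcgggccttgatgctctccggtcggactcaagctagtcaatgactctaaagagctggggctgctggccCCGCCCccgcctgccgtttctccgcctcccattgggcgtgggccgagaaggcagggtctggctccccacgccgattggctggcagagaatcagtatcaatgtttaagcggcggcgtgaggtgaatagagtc
Pcdh10: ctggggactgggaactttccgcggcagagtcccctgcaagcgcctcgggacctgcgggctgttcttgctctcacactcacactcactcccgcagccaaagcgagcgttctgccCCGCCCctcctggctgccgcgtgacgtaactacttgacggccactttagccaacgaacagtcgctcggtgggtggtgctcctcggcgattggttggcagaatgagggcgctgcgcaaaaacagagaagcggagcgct
Each of the 4 windows held 1 GC box, and 32.7% of 32851 RefSeq promoter windows of the same length held at least 1. None of them held TATAAA (12.4% of all windows), TGACGTCA (1.55%) or TAATTA (4.84%), searched on both strands. TAATTA and TGACGTCA read the same on both strands, and the GC box was the only match in each window, so no matches overlapped. Their GC content was 64.4% for Cdh8, 69.2% for Pcdh19, 64.8% for Pcdh17 and 63.2% for Pcdh10, against a median of 52.4% over all windows. These letters are a description of the windows, and no site was measured.

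All 59 members were found in the GENCODE M21 annotation of GRCm38, the build named in the submitters' processing notes. Of these, 27 lie on chromosome 18 and 8 on chromosome 8. The 22 beta genes run in order from position 37264938 to position 37524479 of chromosome 18. The alpha and the gamma array are each represented by 1 row, Pcdhac1 and Pcdhga11; other alpha and gamma genes were not analysed here. Because of the shared last exons, reads of either row may come from other genes of its array, and how such reads were assigned is not given in the sources used here. Beta genes are close copies of one another, so the split of reads among them is uncertain too.

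Levels are in CPM, read counts scaled to the size of the library. Cdh16, a kidney cadherin, was listed at 0 in every library, and 12 members stayed under a mean of 1 CPM in all groups: Cdh1, Cdh3, Cdh5, Cdh16, Cdh17, Cdh19, Cdh23, Cdh24, Cdh26, Pcdh12, Pcdhb1 and Pcdhb11. Among them are E-cadherin (Cdh1) and VE-cadherin (Cdh5), which are known from epithelium and endothelium. The other 47 reached 1 CPM in at least 1 group, and 13 to 15 members a group reached 10 CPM. Per kilobase of annotated exon, the highest level in each group was that of the Pcdhga11 row, between 18.5 CPM per kb in prefrontal cortex and 29.1 in D2 dorsal striatum, followed in D1 dorsal striatum by Cdh13 at 7.53 and the Pcdhac1 row at 7.14. Cdh13 encodes T-cadherin, which has no intracellular tail and is held by a lipid anchor. Pcdh17 ranked behind these rows in D2 dorsal striatum, at 7.55 CPM per kb ahead of Cdh13 at 6.84, and in prefrontal cortex Pcdh1 followed the Pcdhac1 row at 6.32. The highest single beta gene in any group was at 1.95 CPM per kb. Among members with a mean of at least 5 CPM, the median coefficient of variation between libraries of a group was 22.2% to 24.8%.

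**Figure D1:**
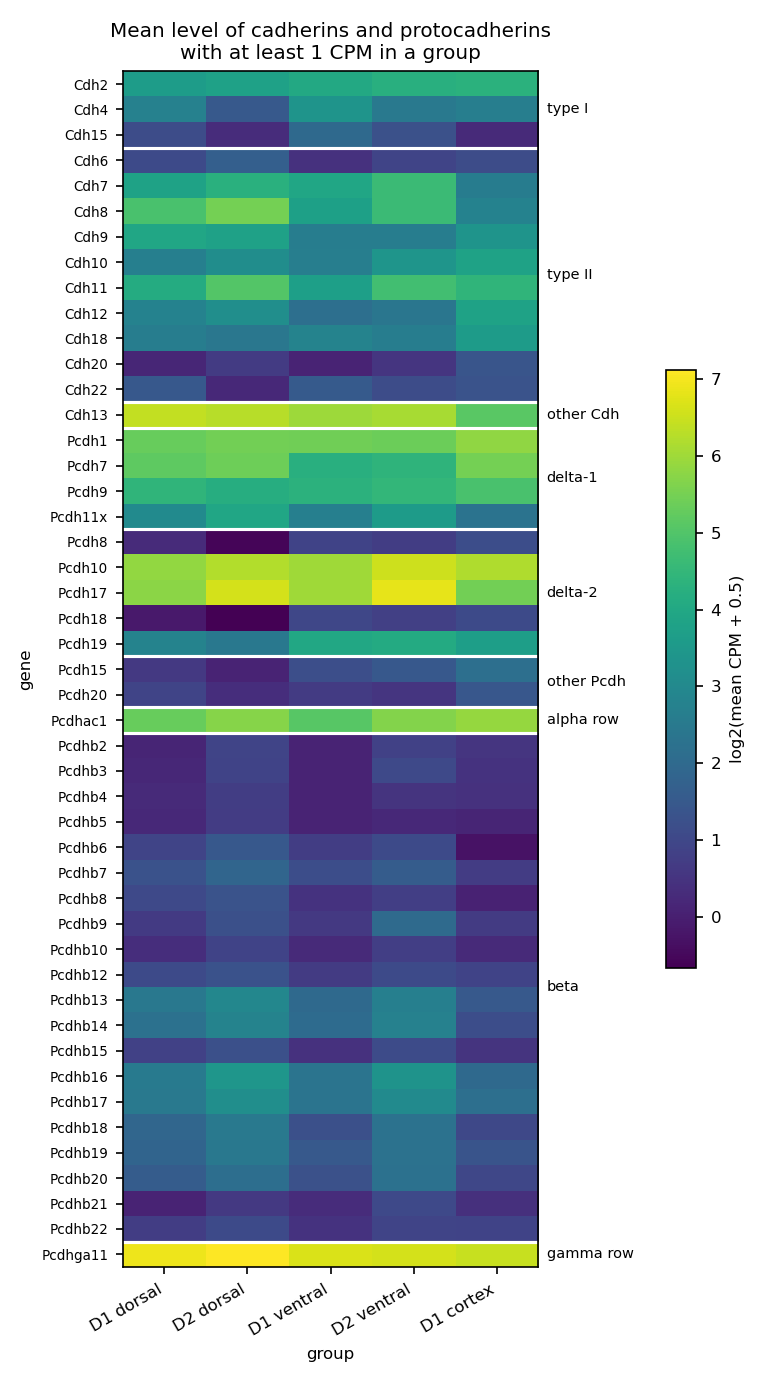
Mean level of the 47 members that reached 1 CPM in at least 1 group, as log2(mean CPM + 0.5), with genes in rows ordered by family and the 5 groups in columns. The Pcdhga11 row reaches 138 CPM in D2 dorsal striatum, Pcdh17 is above it in D2 ventral striatum (113 against 97.3 CPM), and most beta genes are dark.

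Reads in listed genes were 7.35 to 30.8 M (mega) per library, with a median of 17.5 M. The identity genes followed the labels in striatum: the sum of Drd1a, Tac1 and Pdyn was 304 to 598 CPM in the D1 and 18.6 to 80.4 CPM in the D2 striatal libraries, and Drd2, Penk and Adora2a together were 35.3 to 240.3 CPM in D1 and 1506 to 4458 CPM in D2. In prefrontal cortex the D1 identity sum was only 14.2 to 72.9 CPM. Summed over 4 cortical excitatory genes (Slc17a7, Neurod6, Neurod2, Tbr1), dorsal striatum ranged over 23.9 to 107 CPM in D1 (median 78.9) and 0.928 to 27.9 CPM in D2 (median 6.10). Ventral striatum ranged over 13.7 to 92.1 CPM in D1 (median 53.4) and 2.79 to 66.4 CPM in D2 (median 9.21), and prefrontal cortex had a median of 497 CPM. Cholinergic interneuron genes had higher sums in D2, at 2.89 to 14.2 CPM (median 6.32) against 0.365 to 1.59 CPM dorsally and 6.63 to 15.1 CPM (median 12.2) against 0.559 to 2.69 CPM ventrally. None of the genes of these lists was at 0 in all libraries of a striatal group. Oligodendrocyte precursor genes also had higher medians in D2, 5.82 against 3.22 CPM dorsally and 8.24 against 2.60 CPM ventrally, as did oligodendrocyte genes, 86.7 against 58.2 CPM and 62.3 against 41.0 CPM. GABA interneuron genes had a higher median in D1 dorsally, 29.4 against 10.1 CPM, with 3 of the 4 tested called higher, and medians of 17.4 in D1 and 20.0 CPM in D2 ventrally. The part of these cells in the results below was not tested. One library, D1 dorsal striatum replicate 13, was the highest of its group for 6 of the members at 5 CPM or more; it had 21.2 CPM of Cdh4 and 17.3 CPM of Cdh12, against at most 7.02 and 7.70 CPM in the other 14. D2 ventral striatum replicate 2 had the highest sum of the cortical genes in its group, at 66.4 CPM.

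Whether D1 and D2 neurons carry different adhesion genes was asked in each striatal region. Most members that differed were lower in D1 than in D2, among them the type II cadherins Cdh8 and Cdh11, the protocadherins Pcdh10 and Pcdh17, and beta genes. In dorsal striatum 26 of 39 members tested differed (limma, adjusted p under 0.05), 5 higher and 21 lower in D1. The background over all genes tested was 25.9% called, with 12.8% higher and 13% lower. In ventral striatum 22 of 37 members differed, 3 higher and 19 lower, where 47.7% of all genes were called, 24.1% higher and 23.6% lower. The members' median log2 difference, on the log2(CPM + 0.5) scale used throughout, was -0.42 dorsally and -0.44 ventrally, against 0.02 for all genes in both. With the share of a library's reads that fell in genes as a covariate, the members' median was -0.34 dorsally and -0.08 ventrally, against 0.02 and 0.03 for all genes. The regions share no libraries, and 20 members were called in both, each in the same direction, which is 76.9% of the dorsal and 90.9% of the ventral calls. The share of all genes called in both regions was not counted, so this overlap is not read as particular to the members. With the share of reads as a covariate, 7 of the 22 ventral calls remained.

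Among type II cadherins at 5 CPM or more, Cdh11 differed most between receptors. Cdh11, also called osteoblast cadherin and found at synapses as well, was at 10.0 to 28.9 CPM in D1 dorsal striatum (median 16.4) and at 22.5 to 39.5 CPM in D2 (median 33.2). The ranges met, but 11 of 16 D2 libraries lay above every D1 library. The log2 difference was -0.95 (SE 0.13, adjusted p = 3.44e-07) and in ventral striatum -0.99 (SE 0.13, adjusted p = 3.60e-07), with 12 of 14 D2 libraries above every D1 library.
Cdh8, a cadherin of striatal and other forebrain neurons, was at 19.5 to 39.6 CPM in D1 (median 27.9) and 25.8 to 69.1 CPM in D2 dorsal striatum (median 42.8), and at 8.78 to 19.9 (median 12.3) and 14.9 to 35.3 CPM (median 23.8) in ventral striatum. D2 was higher in both regions with overlap, by log2 differences (D1 minus D2) of -0.62 (SE 0.12, adjusted p = 0.000208) and -0.87 (SE 0.12, adjusted p = 2.84e-07). Cdh10 and Cdh7 showed smaller differences, -0.48 and -0.46 dorsally and -0.71 and -0.65 ventrally. With the share of reads as a covariate Cdh7 was -0.08 ventrally (adjusted p = 0.804). Among libraries with the name code EM, described below, Cdh10 was -0.43 dorsally (adjusted p = 0.0960). Of the 9 type II genes tested dorsally, 5 were lower and 1 higher in D1, and of 8 tested ventrally 4 were lower and 1 higher. The gene that was higher was Cdh22, named after its values were seen because it is the 1 exception. Its mean in dorsal striatum was 2.26 CPM (SD 0.607) in D1 and 0.672 CPM (SD 0.301) in D2, a log2 difference of 1.25, and ventrally the difference was 0.46.

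The type I cadherins Cdh4 and Cdh15 went the other way. Cdh4 (R-cadherin) was at 3.11 to 21.2 CPM in D1 dorsal striatum (median 5.52) and at 0.954 to 3.53 CPM in D2 (median 2.43), and 13 of 15 D1 libraries exceeded every D2 library. The log2 difference was 1.18 (SE 0.19, adjusted p = 7.69e-06), and 1.05 (adjusted p = 1.67e-06) without replicate 13. In ventral striatum it was at 7.39 to 11.9 CPM in D1 and 1.21 to 8.23 CPM in D2, a difference of 1.01 (SE 0.18, adjusted p = 3.47e-05). Cdh15, known as muscle cadherin, was low but also higher in D1, at 1.70 against 0.747 CPM dorsally and 3.49 against 1.91 CPM ventrally (log2 differences 0.76 and 0.77). With the share of reads as a covariate its ventral value was 0.38 (adjusted p = 0.447). N-cadherin (Cdh2) was not called in either region. T-cadherin (Cdh13) was not called either, with log2 differences of 0.13 (SE 0.07) and -0.14 (SE 0.08). Dorsally it was called with scaling to reads in genes (0.19, adjusted p = 0.0230) and with each library's share of reads falling in genes as a covariate (0.20, adjusted p = 0.0245).

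Among non-clustered protocadherins the delta-2 genes Pcdh17 and Pcdh10 and the delta-1 gene Pcdh11x were lower in D1 in both regions, and Pcdh19 and Pcdh20 were higher in D1 dorsally. Pcdh17, known for work on corticostriatal synapses and axon extension, was at 33.7 to 90.0 CPM in D1 and 54.2 to 169.6 CPM in D2 dorsal striatum, with medians of 57.9 and 100.2. Pcdh17 was at 44.9 to 107 CPM in D1 and 56.6 to 165 CPM in D2 ventral striatum, with medians of 54.3 and 122. The ranges overlapped in both regions, and 11 of 16 dorsal and 9 of 14 ventral D2 libraries lay above every D1 library. Its log2 differences were -0.83 (SE 0.16, adjusted p = 0.000127) and -0.80 (SE 0.16, adjusted p = 0.000192). With the share of reads as a covariate its ventral value was -0.07 (adjusted p = 0.808). Pcdh10, a delta-2 gene linked to synapse elimination, differed by -0.39 and -0.54 (SE 0.09 and 0.10), at 57.1 against 74.4 CPM and 63.3 against 92.3 CPM. The same covariate gave it a ventral value of -0.27 (adjusted p = 0.155). X-linked Pcdh11x differed by -0.84 and -0.87. Among libraries with the name code EM, described below, its dorsal value was -0.43 (adjusted p = 0.0807). Pcdh19, mutated in a form of epilepsy, differed dorsally by 0.36 (adjusted p = 0.0201), with means of 6.46 CPM (SD 1.47) and 4.93 CPM (SD 1.14), and was not called ventrally. Pcdh20 was at 1.38 against 0.769 CPM dorsally. The other delta-1 genes Pcdh1, Pcdh7 and Pcdh9 were not called in either region, with log2 differences for Pcdh7 of -0.22 (SE 0.14) and -0.10 (SE 0.11). Pcdh9 was called higher in D1 dorsally with scaling to reads in genes (0.29, adjusted p = 0.0438) and without replicate 13 (0.27, adjusted p = 0.0304).

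**Figure D2:**
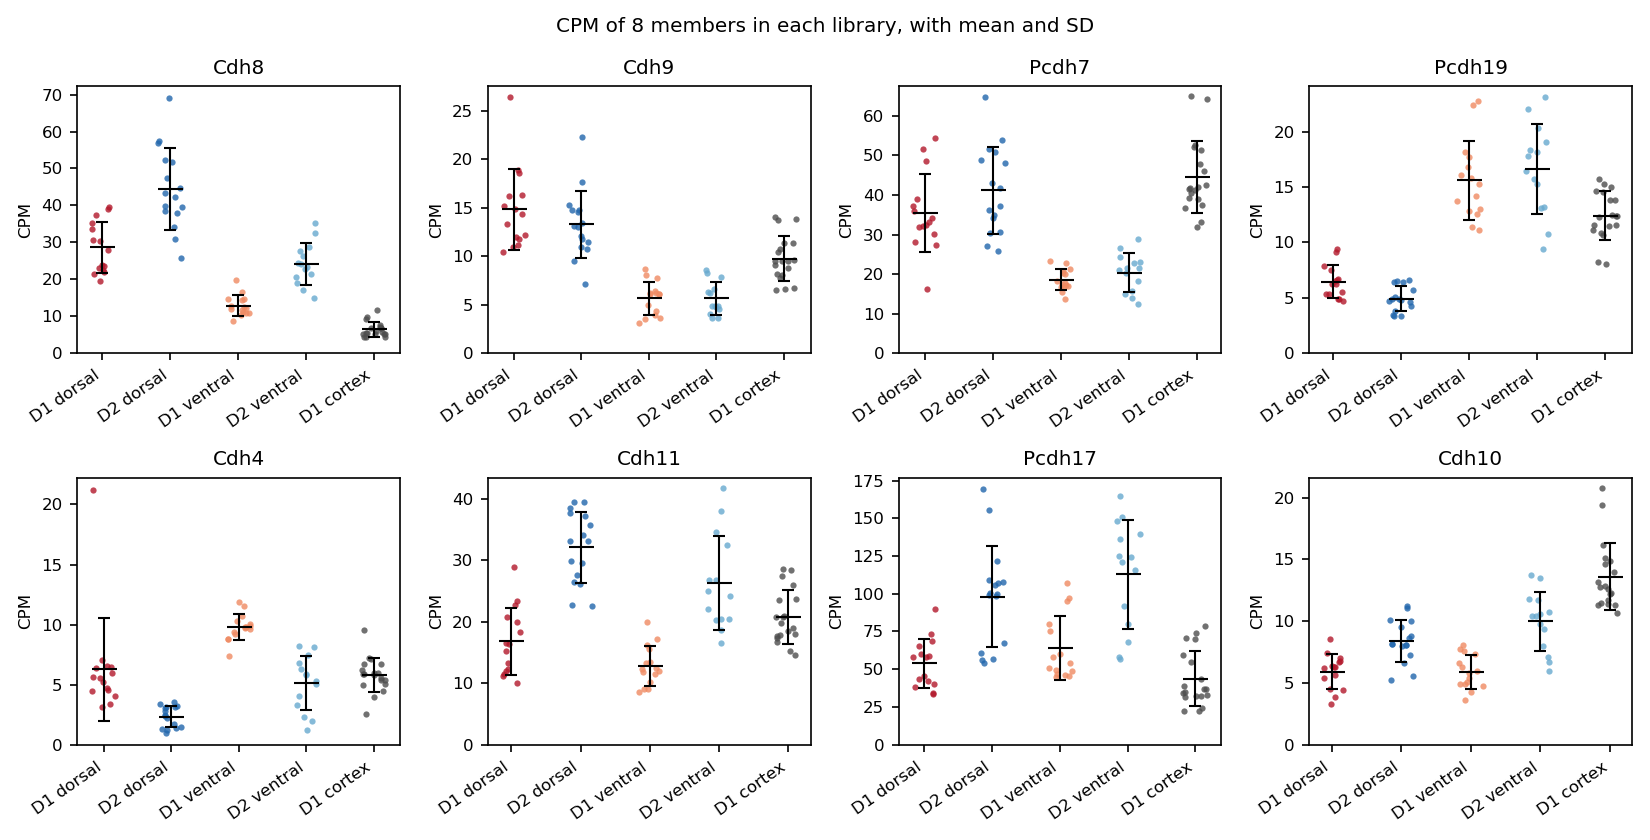
CPM of 8 members in each library of the 5 groups, with the group mean (bar) and SD (whiskers) on a linear axis from 0. Cdh11 and Pcdh17 are higher in the D2 groups, Cdh4 in the D1 groups, Cdh8, Cdh9 and Pcdh7 in dorsal and Pcdh19 in ventral striatum, and Cdh10 is highest in D1 cortex, at 10.7 to 20.8 CPM.

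Most beta genes tested were lower in D1. Of 16 beta genes tested in dorsal striatum 12 were called and all 12 were lower in D1; of 13 tested in ventral striatum 11 were called, again all lower. Their medians were -0.58 and -0.66. With the share of a library's reads that fell in genes as a covariate, 2 of the 13 were called ventrally and the median was -0.44. In that fit 10.7% of all genes were called. Because the filter on low values left out part of the array, all 22 were also tested without it: 15 were lower in D1 dorsally, where 7.36% of all genes were called lower, and 16 were lower ventrally, where that share was 14.5%. The gene at the start of the array, Pcdhb1, was higher in D1 ventrally in that fit, at 0.142 against 0.0438 CPM. Summed over the 22 genes, the level was 29.1 to 59.5 CPM in D1 (median 41.8) and 49.4 to 84.0 CPM in D2 dorsal striatum (median 73.8). In ventral striatum the sum was 23.4 to 54.0 CPM in D1 (median 30.7) and 40.7 to 96.9 CPM in D2 (median 63.1). The ranges of D1 and D2 sums overlapped in both regions. Pcdhb16 was among the beta genes with the highest level, with dorsal means of 5.34 CPM (SD 1.51) in D1 and 10.2 CPM (SD 2.13) in D2 (log2 -0.89, SE 0.12, adjusted p = 7.75e-07), and ventrally it differed by -1.02 (SE 0.15, adjusted p = 1.87e-06). Pcdhb9 had the largest ventral difference, -1.31 (SE 0.20, adjusted p = 4.90e-06), at 1.05 against 3.57 CPM. It was named after its values were seen. In the fit without the filter Pcdhb17 differed by -0.76 dorsally and -0.69 ventrally (limma, adjusted p = 0.00135 and 0.00872). Pcdhb13 differed there by -0.48 and -0.62 (adjusted p = 0.0338 and 0.0368). With the share of reads as a covariate neither Pcdhb17 nor Pcdhb13 was called ventrally.

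The Pcdhac1 row was lower in D1 as well, by -0.42 (SE 0.11, adjusted p = 0.00352) dorsally and -0.59 (SE 0.11, adjusted p = 0.000101) ventrally, at 38.7 against 51.2 CPM and 33.4 against 50.6 CPM. With the share of reads as a covariate its ventral value was -0.18 (adjusted p = 0.361). The Pcdhga11 row was not called in either region, with differences of -0.20 (SE 0.09) and 0.06 (SE 0.08); with the share of reads as a covariate it was called lower dorsally (-0.30, adjusted p = 0.00955).

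**Figure D3:**
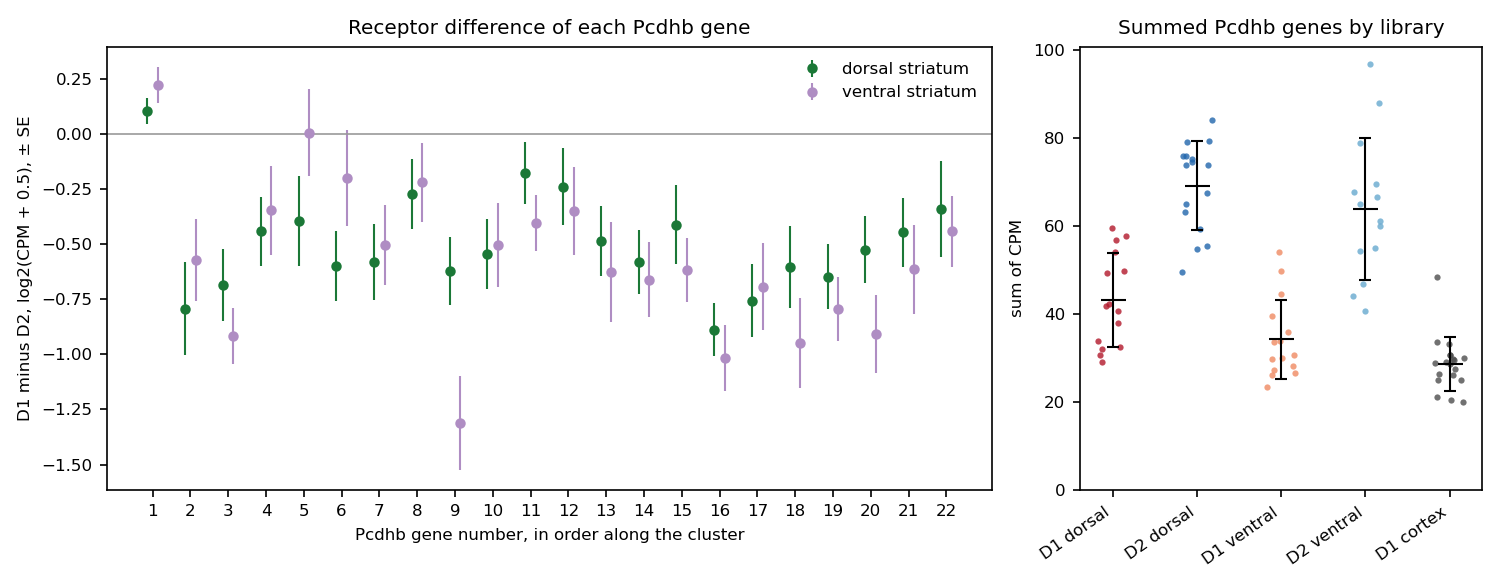
Left, D1 minus D2 log2 difference with its SE for the 22 Pcdhb genes in order along the array, fitted without the filter on low values, in dorsal and ventral striatum; right, the sum of the 22 genes in CPM for each library of the 5 groups, with mean and SD. Most points lie below 0 in both regions, and the summed level of the D2 groups (means 69.1 and 63.9 CPM) lies above that of the D1 groups (means 43.2, 34.2 and 28.6 CPM).

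The receptor differences were also fitted within 1 kind of library and with a library property in the model. Library names carry 1 of 4 letter codes whose meaning is not stated, and 8 of the 16 D2 dorsal libraries have a code, OdP, that no D1 dorsal library has. Within the code EM (11 D1 and 8 D2 libraries) 16 of 38 members were called dorsally, 4 higher and 12 lower, all among the 26 and in the same direction; beta genes were 6 of 15. Of all genes, 12.3% were called in that smaller set of libraries. The median of the beta genes tested was -0.56 there, against -0.58 over all dorsal libraries. There Pcdh11x (-0.43, adjusted p = 0.0807), Cdh10 (-0.43, adjusted p = 0.0960) and Pcdh19 (0.43, adjusted p = 0.0671) were not called, while Cdh11, Cdh8, Pcdh17, Pcdh10, Pcdhac1, Pcdhb16 and Cdh4 were. Ventrally, the share of a library's reads that fell in genes moved with the receptor, at 32.8% to 37.5% in D1 and 34.7% to 39.8% in D2 libraries. With that share in the model 7 of 37 members were called ventrally (10.7% of all genes): Cdh4 was higher and Cdh8, Cdh10, Cdh11, Pcdh11x, Pcdhb16 and Pcdhb9 were lower in D1. Among them Cdh11 went from -0.99 to -0.52, Cdh8 from -0.87 to -0.49 and Pcdhb16 from -1.02 to -0.47. In that fit Pcdh17 was at -0.07 (adjusted p = 0.808), Cdh7 at -0.08 (adjusted p = 0.804), Pcdhac1 at -0.18 (adjusted p = 0.361), Pcdh10 at -0.27 (adjusted p = 0.155), Cdh15 at 0.38 (adjusted p = 0.447) and Cdh22 at 0.39 (adjusted p = 0.264).

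Dorsal and ventral striatum were compared within each receptor. Several type II cadherins and Pcdh7 were higher dorsally, and Pcdh19 and the 3 type I cadherins tested (Cdh2, Cdh4 and Cdh15) were higher ventrally, in both receptor lines. In D1, 17 of 38 members tested passed, 11 higher and 6 lower dorsally, where 34.6% of all genes were called, 10.1% higher and 24.5% lower. In D2, 15 of 39 were called, 8 higher and 7 lower, where 28.5% of all genes were called, 7.93% higher and 20.6% lower. All genes together had a median of -0.12 in each line, and median-ratio scaling (dividing each library by its median ratio to the others) moved it to -0.01 in D1 and to 0.00 in D2; with that scaling the D2 calls were 10 higher and 4 lower, with scaling to the reads in genes 10 and 5, and with edgeR 9 and 5. With the first and the second of these scalings Cdh15 did not pass the filter on low values in D2 and was not tested. The receptors share no libraries here, and 11 members were called in both, all in the same direction (64.7% of the D1 and 73.3% of the D2 calls): Cdh6, Cdh8, Cdh9, Cdh12, Pcdh7, Pcdhb8 and Pcdhga11 were higher dorsally, and Cdh2, Cdh4, Cdh15 and Pcdh19 ventrally. The share of all genes called in both lines was not counted, so this overlap is not read as particular to the members. Markers of other cells differed between the regions too. GABA interneuron genes were called in 4 of 4 tested in D1 (3 higher and 1 lower dorsally) and in 3 of 4 in D2 (all lower), and 2 of 3 cholinergic genes were lower dorsally in D2. Choroid plexus genes were called lower dorsally in 2 of 2 tested in D1, and in D2 2 were lower and 1 higher of 3. Their sum was 2.91 to 49.6 CPM in D1 dorsal, 12.3 to 19.8 CPM in D1 ventral, 7.52 to 48.0 CPM in D2 dorsal and 11.2 to 23.2 CPM in D2 ventral striatum, where 1 of the 4 genes was at 0 throughout. Oligodendrocyte genes were higher dorsally in 2 of 2 tested in D1 and in 1 of 4 in D2, and striatal projection neuron genes in 3 of 4 and in 4 of 4. The part of these cells in the regional differences was not tested.

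Cdh9, a type II cadherin known from hippocampal mossy fibre synapses, was at 10.4 to 26.4 CPM in D1 dorsal (median 14.3) and at 3.15 to 8.65 CPM in D1 ventral striatum (median 6.10). Every dorsal D1 library was above every ventral one, and the log2 difference was 1.32 (SE 0.14, adjusted p = 1.03e-09). In D2 it was at 7.15 to 22.3 CPM dorsally and 3.63 to 8.59 CPM ventrally, with 15 of 16 dorsal libraries above every ventral library (1.17, SE 0.14, adjusted p = 2.27e-08). Cdh9 was not called between receptors, with differences of 0.15 (SE 0.13) and 0.00 (SE 0.15); with the share of reads as a covariate it was called higher in D1 dorsally (0.32, adjusted p = 0.0223) and was 0.41 ventrally (adjusted p = 0.142). Cdh8 was higher dorsally by 1.11 in D1 (SE 0.11, adjusted p = 7.06e-10) and by 0.86 in D2 (SE 0.13, adjusted p = 1.43e-06); its levels stand above. Cdh12 was higher dorsally by 0.55 in D1 (SE 0.15, adjusted p = 0.00517), 0.44 without replicate 13 (adjusted p = 0.00430), and by 0.84 in D2 (SE 0.20, adjusted p = 0.00131), where within EM libraries it was 0.50 (adjusted p = 0.281).

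Pcdh19 had the largest regional difference of the members tested in D2, and in D1 only that of Cdh9 was larger. It was at 4.69 to 9.39 CPM in D1 dorsal (median 6.25) and 11.1 to 22.8 CPM in D1 ventral striatum (median 15.3), and at 3.33 to 6.61 CPM in D2 dorsal (median 4.84) and 9.38 to 23.1 CPM in D2 ventral striatum (median 17.1). In both receptor lines every ventral library lay above every dorsal one. The log2 differences were -1.21 (SE 0.11, adjusted p = 6.22e-11) and -1.65 (SE 0.13, adjusted p = 1.37e-12). Pcdh18, also of the delta-2 class, did not pass the filter on low values between regions, with means of 0.411 CPM dorsally and 1.5 CPM ventrally in D1 and of 0.129 and 1.23 CPM in D2. Without the filter it was lower dorsally in both lines (Pcdh18 -1.15 in D1, adjusted p = 2.32e-09, and -1.47 in D2, adjusted p = 3.25e-09); it is named after its values were seen. Pcdh7, of the delta-1 class, ran the opposite way. It was at 16.2 to 54.5 CPM dorsally and 13.8 to 23.3 CPM ventrally in D1 (0.87, SE 0.12, adjusted p = 2.15e-07), and at 26.0 to 64.8 and 12.4 to 29.0 CPM in D2 (0.99, SE 0.13, adjusted p = 2.51e-07), with 14 of 15 and 14 of 16 dorsal libraries above every ventral library.

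Of the type I genes, Cdh4 was lower dorsally by 0.74 in D1 and 0.92 in D2 on the log2 scale (differences -0.74 and -0.92, adjusted p = 0.000210 and 0.00113). Cdh2, which is broadly expressed, differed by -0.40 and -0.44 (adjusted p = 0.00137 and 0.00191), and within EM libraries of D2 by -0.27 (adjusted p = 0.197). T-cadherin (Cdh13) was called in D1, with means of 84.6 CPM (SD 12.5) dorsally and 62.2 CPM (SD 8.93) ventrally (0.44, SE 0.08, adjusted p = 5.15e-05), and was 0.17 (SE 0.07, adjusted p = 0.0591) in D2. The D2 difference was called under 6 of its alternatives, at 0.17 to 0.31 (adjusted p = 0.00249 with edgeR to 0.0419 with the share of reads as a covariate). The beta array had 3 of 13 tested genes called in D1 (Pcdhb8, Pcdhb13 and Pcdhb18, all higher dorsally), where 34.6% of all genes were called, and 3 of 18 in D2 (Pcdhb6 and Pcdhb8 higher, Pcdhb9 lower), where 28.5% were. Within EM libraries of D2 only Pcdhb8 of these was called, with Pcdhb6 at 0.54 (adjusted p = 0.213) and Pcdhb9 at -0.33 (adjusted p = 0.265), against -0.67 over all D2 libraries. Within EM libraries of D1 2 of 10 were called, Pcdhb13 and Pcdhb18. Over all genes, 3565 of 11375 were called in that D1 fit and 2238 of 11288 in the D2 fit. Without the filter on low values 2 of the 22 were called in each line, Pcdhb8 and Pcdhb18 in D1 and Pcdhb8 and Pcdhb9 in D2, where 22.8% and 18.6% of all genes were called. The Pcdhga11 row was higher dorsally, by 0.23 in D1 and 0.50 in D2 (adjusted p = 0.0357 and 4.86e-05), at 119.9 against 102 CPM and 138 against 97.3 CPM. Within EM libraries the D1 value was 0.25 (adjusted p = 0.0526).

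**Figure D4:**
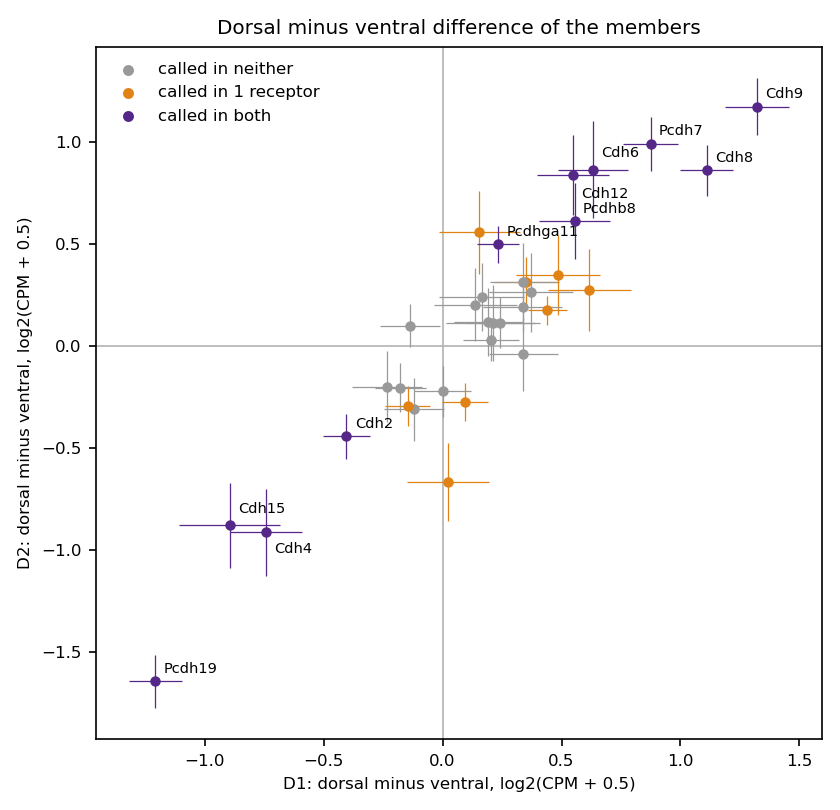
Dorsal minus ventral log2 difference with its SE for each member tested in both receptor lines, D1 on the horizontal and D2 on the vertical axis, coloured by the number of lines in which it was called. The 11 named members were called in both and lie in the upper right or lower left; Pcdh19 is lowest at -1.21 and -1.65, and Cdh9 is highest.

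Whether the receptor difference itself differed between striatal regions was tested over the 60 striatal libraries. Of 46 members tested, 1 was called (2.64% of all genes), Cdh22, whose D1 minus D2 difference was larger dorsally by 0.78 (SE 0.21, adjusted p = 0.0240). It was at 0.103 to 1.29 CPM in D2 dorsal striatum, the lowest of the 4 striatal groups, with medians of 2.34 CPM in D1 dorsal, 2.40 CPM in D1 ventral and 1.67 CPM in D2 ventral striatum. Within EM libraries it was 0.55 (adjusted p = 0.234), and over that result's other alternatives it remained called. None of the other 45 was called; 8 members had an unadjusted p under 0.05.

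D1 libraries of prefrontal cortex were compared with D1 libraries of each striatal region. Both comparisons use the same cortical libraries, so their values are given side by side and are not independent. Cortex had higher levels of the type II genes Cdh10, Cdh12, Cdh18 and Cdh20, and lower levels of Cdh7, Cdh8 and Cdh13. Of 11 non-clustered protocadherins tested, 9 were higher and 1 lower (Pcdh11x) in cortex against dorsal striatum. Against ventral striatum 6 were higher and 3 lower (Pcdh11x, Pcdh17 and Pcdh19). Within EM libraries Pcdh17 was -0.56 against ventral striatum (limma, adjusted p = 0.000705). With dorsal striatum as the reference, 30 of 39 members passed the test, 16 higher and 14 lower in cortex (background 54.8% called, 32.3% higher and 22.5% lower). With ventral striatum as the reference, 28 of 38 passed, 15 higher and 13 lower (background 62.8%, 27.7% and 35.1%). With edgeR the dorsal split was 14 higher and 17 lower, and with median-ratio scaling the ventral split was 17 and 10. Neuron subtypes and glia of the pieces differed too: GABA interneuron genes had a median sum of 149.9 CPM in cortex against 29.4 and 17.4 CPM in D1 dorsal and ventral striatum, and astrocyte genes 22.4 against 5.44 and 3.24 CPM. Striatal projection neuron genes were at 58.5 CPM in cortex and 1515 and 1025 CPM in striatum. The part of cell makeup in these differences was not tested.

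The type II gene Cdh10 was at 10.7 to 20.8 CPM in cortex (median 12.8), above every D1 striatal library of either region. Its log2 difference was 1.15 against dorsal (SE 0.11, adjusted p = 1.89e-12) and 1.15 against ventral striatum (SE 0.10, adjusted p = 1.36e-13). Cdh12 was at 8.77 to 20.2 CPM in cortex (median 13.6), against 3.58 to 17.3 CPM in dorsal and 2.24 to 5.50 CPM in ventral striatum, with differences of 1.10 (SE 0.14) and 1.64 (SE 0.11). Only 2 of 19 cortical libraries exceeded every dorsal library for Cdh12, the highest of which is replicate 13; without it the difference was 1.20. Cdh18 was at 8.38 to 15.1 CPM in cortex, above all D1 striatal libraries, with differences of 0.98 and 0.80. Cdh20 was at 2.13 CPM in cortex against 0.621 and 0.575 CPM (1.26 and 1.31).

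Cdh8 showed the reverse, at 4.26 to 11.6 CPM in cortex (median 5.74), below every D1 dorsal library (-2.08, SE 0.12, adjusted p = 2.46e-18) and, in 16 of 19 cortical libraries, below every ventral one (-0.97, SE 0.11, adjusted p = 7.86e-10). Cdh7 was at 2.95 to 8.10 CPM in cortex, below every D1 striatal library of either region (-1.21 and -1.34). T-cadherin (Cdh13) was at 15.6 to 69.1 CPM in cortex (median 30.5), lower by 1.40 and 0.96 (differences -1.40 and -0.96). Cdh9 was lower than in dorsal and higher than in ventral striatum (-0.57 and 0.75, adjusted p = 4.75e-05 and 1.22e-06), and its cortical range of 6.54 to 14.0 CPM overlapped both. Cdh4 was called against ventral striatum only, at -0.73, and was 0.01 against dorsal striatum.

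Among protocadherins, Pcdh7 was at 32.0 to 64.9 CPM in cortex, above every ventral D1 library (1.23, SE 0.09, adjusted p = 3.34e-16) and closer to dorsal striatum (0.35, SE 0.12, adjusted p = 0.00950; 0.24 with edgeR, adjusted p = 0.0936). Pcdh19 was higher than in dorsal (0.90, SE 0.10) and lower than in ventral striatum (-0.31, SE 0.10); within EM libraries the ventral value was -0.18 (adjusted p = 0.109). Pcdh15, known for the tip links of inner ear hair cells, was at 4.00 CPM in cortex against 1.03 and 1.81 CPM (1.56 and 0.96). Pcdh9, Pcdh1 and Pcdh10 were higher by 0.47, 0.50 and 0.35 against dorsal and by 0.57, 0.36 and 0.21 against ventral striatum. Pcdh11x was lower in cortex (-0.74 and -0.40). The cluster rows moved apart: Pcdhac1 was higher in cortex (0.60 and 0.81, adjusted p = 2.63e-05 and 3.43e-08), while Pcdhga11 was lower (-0.44 and -0.21; the latter was -0.13 with median-ratio scaling, adjusted p = 0.167). Of the beta genes, 7 of 12 tested were called against dorsal striatum, all lower in cortex, and 5 of 11 against ventral striatum, 4 lower and 1 (Pcdhb22) higher. These counts stand against 54.8% and 62.8% of all genes called, with 22.5% and 35.1% lower. Within EM libraries they were 6 of 11 and 3 of 11, where 6177 of 11762 and 7541 of 11843 genes were called. With median-ratio scaling the ventral calls were 2 lower and 2 higher, where 7265 of 11706 genes were called. Without the filter on low values, 10 of the 22 were lower and 1 (Pcdhb2, 0.45, adjusted p = 0.0416) higher against dorsal striatum, where 41.9% of all genes were called. Against ventral striatum 5 were lower and 3 (Pcdhb2, Pcdhb3 and Pcdhb22) higher, where 47.0% of all genes were called.

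**Figure D5:**
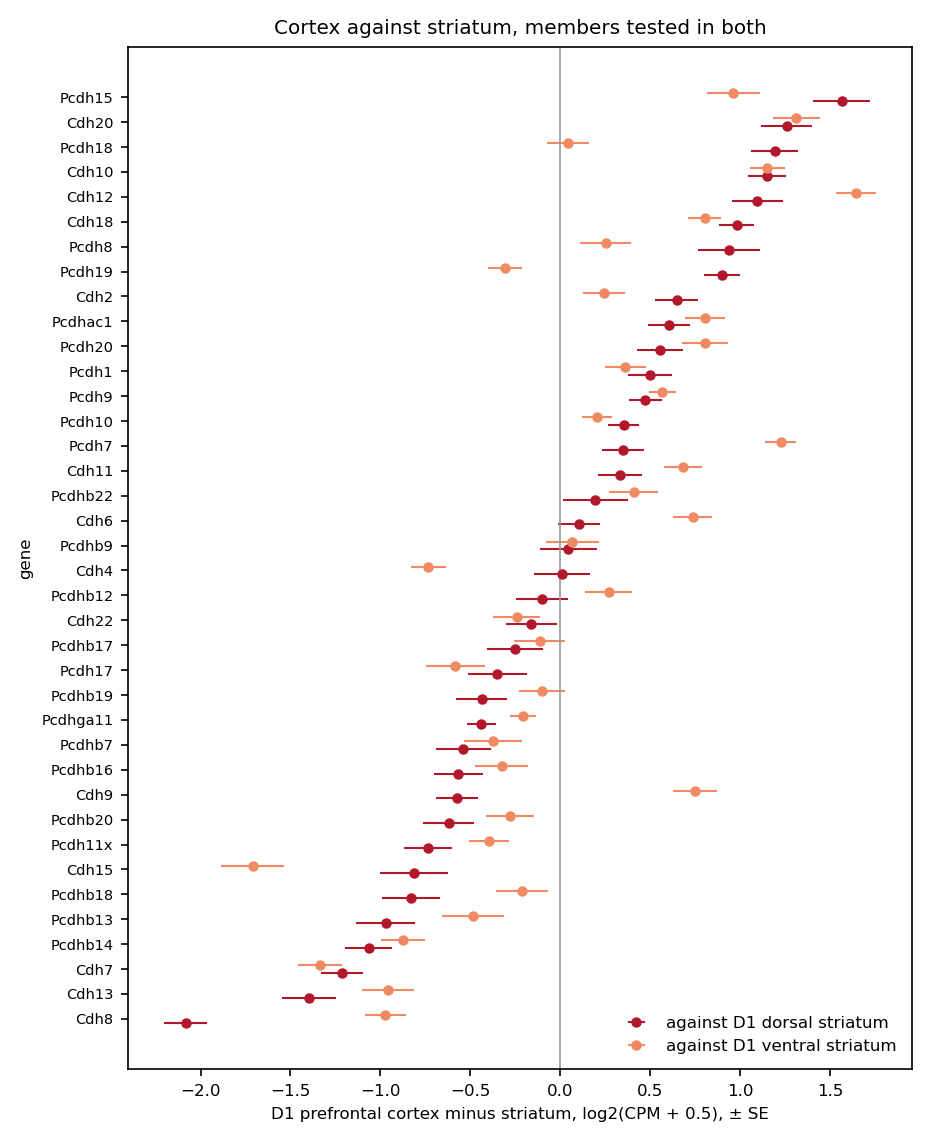
D1 prefrontal cortex minus D1 striatum, as log2(CPM + 0.5) difference with its SE, for each member tested against both striatal regions, ordered by the difference from dorsal striatum. Pcdh15 (1.56) stands at the top and Cdh8 (-2.08) at the bottom, and Cdh9 and Pcdh19 lie on opposite sides of 0 for the striatal regions.

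Partners of these proteins were taken from lists, and their receptor counts stand against 25.9% of all genes called dorsally and 47.7% ventrally. Of 11 catenins and related genes, which couple classical cadherins to the cytoskeleton, 9 were tested dorsally and 5 were called between receptors, 2 higher and 3 lower in D1; ventrally 9 of 10 were called, 3 higher and 6 lower. Plakoglobin (Jup) was higher in D1, at 15.4 against 7.06 CPM dorsally and 21.6 against 10.3 CPM ventrally (log2 1.07 in both, adjusted p = 4.91e-05 and 1.40e-08), and alpha-E-catenin (Ctnna1) was lower, by -0.49 and -0.68. Beta-catenin (Ctnnb1) was not called between receptors and was lower dorsally than ventrally (-0.37 in D1 and -0.38 in D2). Of the regulators of the clustered arrays and their kinase partners, 5 of 11 were called between receptors dorsally and 3 of 11 ventrally, all lower in D1, where 13% of all genes were called lower dorsally and 23.6% ventrally. Ventrally the count was below the share of all genes called and near the share called lower. They were the cohesin subunits Stag1 and Stag2, the cohesin loader Nipbl, Smchd1, which represses clustered protocadherin genes, and the kinase Ptk2b dorsally, and Stag2 (-0.55), Nipbl (-0.50) and Smchd1 (-0.45) ventrally. CTCF, which binds the promoters of the arrays, was not called between receptors and was lower in cortex (-0.37 and -0.51).

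Of WAVE complex genes, 2 of 10 were called between receptors in either region, below the share of all genes in both. Between regions 5 of 10 were called in D1, 3 higher and 2 lower dorsally, and 2 of 10 in D2, 1 higher and 1 lower. Over all genes 34.6% and 28.5% were called there. Wasf3 was lower dorsally than ventrally (-0.85 in D1 and -0.87 in D2). Of cadherin-processing proteases, 2 of 5 were called dorsally and 2 of 6 ventrally, in each region 1 higher and 1 lower in D1. Adam10, which sheds cadherin ectodomains, was lower in D1 (-0.32 and -0.45). Of other cadherin superfamily genes, 2 of 9 were called dorsally and 5 of 10 ventrally, near the shares of all genes. Between regions 5 of 9 of these genes were called in each receptor line, 3 higher and 2 lower dorsally, where 34.6% and 28.5% of all genes were called. The giant cadherin gene Fat1 was lower dorsally than ventrally in both receptor lines, at 4.49 against 14.4 CPM in D1 and 4.64 against 13.3 CPM in D2 (-1.57 and -1.44, adjusted p = 1.04e-10 and 5.99e-10).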

How the data were processed

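The 79 libraries were described by 1 table of CPM values that the authors deposited, whose column names are the sample titles. Per the submitters' processing notes, reads were trimmed with Trim Galore 0.4.2 and cutadapt 1.9.1, checked with FastQC and aligned with HISAT2 to GRCm38; the counting program and annotation are not given in the sources used here. Per the labels' protocols, cDNA was amplified and read as 50-base pairs, and no molecular identifiers are described, so depth bounds counting error only. The CPM values were whole multiples of 1 step per column (100% within 0.01 read), 1 read being worth 0.0124 to 0.0466 CPM, and total reads were 21.4 to 80.4 M per library.

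The test was limma 3.58.1 under R 4.3.3, by lmFit and eBayes with a trend, applied to log2(CPM + 0.5) of the compared groups alone. A gene entered a fit when the number of libraries at 1 CPM or more reached the size of the smaller group. All p-values are two-sided and adjusted by Benjamini-Hochberg over the genes tested, and called means an adjusted p under 0.05. Of the 59 members, 31 were tested in all 6 comparisons of pairs of groups and 14 in none of them. The p-values measure the spread between pooled libraries. Replicate numbers were given in accession order and pair nothing. Alternatives were EM libraries only, the name code or the share of reads in genes added to the model, other scalings, pseudocounts of 0.1 and 1, no filter, edgeR 4.0.16 on the recovered reads, and 1 library left out, which for D1 dorsal striatum replicate 13 was chosen after seeing the data. The fits were tested on simulated data. Promoter sequences are from RefSeq, and 22 members had a window.

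The rule for values in full took up to 5 called members in each direction of each comparison with a mean of at least 5 CPM, members called in the interaction with such a mean, the most abundant member of each family and up to 3 per cluster. Not printed from the main fit are Cdh2 in cortex minus dorsal striatum, Pcdh17 in cortex minus ventral striatum, and Pcdh10 and Pcdh9 between regions in D2. Other members are named where a count falls on them. The members and lists were chosen with earlier results of these data known. The cortical marker list was shortened to 4 genes, and the gene left out is not reported here.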

Additional observations from a re-analysis of the deposited data

Results flagged for a closer look

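The D1 minus D2 difference of Cdh22 was larger in dorsal than in ventral striatum by 0.78 on the log2 scale (SE 0.21, adjusted p = 0.0240 with limma, interaction test over 60 libraries), which flags it as a difference between regions. Of 46 members tested it was the 1 called, where 2.64% of all genes were called. The dorsal means of Cdh22 were 2.26 CPM (SD 0.607, 15 libraries) in D1 and 0.672 CPM (SD 0.301, 16 libraries) in D2. The ventral means were 2.39 CPM (SD 0.539, 15 libraries) and 1.69 CPM (SD 0.768, 14 libraries). Within EM libraries the value was 0.55 (adjusted p = 0.234).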

How the results depend on the processing

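No member value that was called changed sign under the alternatives run. Between receptors in dorsal striatum, 26 members were called, 16 within EM libraries and 17 with the name code as a covariate; the 17 were also all among the 26, while calls over all genes went from 2871 to 1389 and 1658. Between receptors in ventral striatum, 22 were called and 7 once the share of reads in genes was in the model, with beta genes at 2 of 13. For the interaction, 1 member was called, 0 within EM libraries (7 at an unadjusted p under 0.05) and 2 with edgeR, which added Pcdh8 (adjusted p = 0.0305). Without D1 dorsal striatum replicate 13, chosen after seeing the data, 29, 18 and 31 members were called in D1 minus D2 dorsally, in dorsal minus ventral D1 and in cortex minus dorsal striatum, while the calls over all genes went from 2871 to 3609, from 3918 to 4340 and from 6388 to 6655. Without D2 ventral striatum replicate 2, 22 members were called between receptors ventrally. Cdh12 was called between dorsal receptors without replicate 13 (-0.52, adjusted p = 0.0119). Pcdh10 and Pcdh9 were no longer called between dorsal and ventral D2 with median-ratio scaling (adjusted p = 0.270 and 0.295).

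For all genes, calls higher and lower split differently by scaling: 1424 and 1447 between dorsal receptors became 1709 and 1154 with scaling to reads in genes, 2751 and 2692 between ventral receptors became 3698 and 1895 (median 0.02 to 0.13), 1144 and 2774 in dorsal minus ventral D1 became 1673 and 1599 with median-ratio scaling, 887 and 2302 in D2 became 1352 and 1366, and 3766 and 2622 in cortex minus dorsal striatum became 3119 and 3472 with edgeR. The cause was not tested. Of 2751 member values under all alternatives, 2561 kept direction and side of the threshold, 74 lost the call, 56 gained one and 60, none called before or after, changed sign. Within EM libraries these were Pcdh7 0.042, Pcdh8 -0.067 and Pcdhga11 -0.011 between ventral receptors, Pcdh11x -0.052 and Pcdhb16 -0.060 between regions in D2, Cdh4 -0.19 and Pcdhb12 0.045 in cortex minus dorsal striatum, Pcdhb19 0.025 in cortex minus ventral striatum, and Cdh11 -0.093, Cdh12 0.10, Cdh2 -0.10, Cdh9 -0.039, Pcdhb12 -0.12 and Pcdhb14 -0.087 in the interaction. With the share of reads in genes in the model these were Cdh12 0.34, Cdh2 0.041, Pcdh15 0.038, Pcdh19 0.19, Pcdh7 0.12 and Pcdhb6 0.13 between ventral receptors, Pcdh17 0.065 and Pcdhb20 0.050 between regions in D2, and Cdh11 -0.14, Cdh15 0.10, Cdh2 -0.024, Cdh9 -0.020, Pcdh11x -0.069, Pcdhb14 -0.011 and Pcdhb16 -0.039 in the interaction. With scaling to reads in genes these were Pcdh19 0.030 and Pcdh7 0.0070 between ventral receptors, Cdh10 -0.0066 between regions in D1, and Cdh11 -0.012, Cdh18 -0.020, Cdh2 -0.012 and Pcdh11x -0.024 in the interaction. With edgeR these were Cdh9 -0.0041 between ventral receptors, Cdh22 0.028 between regions in D1, Pcdhb20 0.030 between regions in D2, Cdh4 -0.19, Cdh6 -0.0054 and Pcdhb9 -0.046 in cortex minus dorsal striatum, and Cdh15 0.29, Pcdh11x -0.00060, Pcdhb17 0.074 and Pcdhb8 0.13 in the interaction. With median-ratio scaling these were Cdh9 -0.0031 between ventral receptors, Cdh22 0.013 between regions in D1, Pcdhb20 0.065 between regions in D2, and Cdh4 -0.023 in cortex minus dorsal striatum. With the name code in the model these were Cdh15 0.032, Pcdh17 0.022, Pcdhb10 0.030 and Pcdhb8 0.023 in the interaction. With a pseudocount of 0.1 these were Cdh10 -0.00063 between regions in D1, and Cdh15 0.13 in the interaction. Without D1 dorsal striatum replicate 13 these were Pcdhb9 -0.0070 between regions in D1, and Pcdh11x -0.034 in the interaction. Without D2 ventral striatum replicate 2 these were Cdh9 -0.0087 between ventral receptors, and Pcdh17 0.018 in the interaction. Pcdh11x in the interaction was 0.034 without that last library. No paired analysis was run because no label ties a library to the mice of another. Taken as letter code and number together, at most 1 library name recurs between 2 groups. The names count on across regions, and whether neighbouring numbers share mice is not stated. Depth limits members under 1 CPM, where 1 read is worth up to 0.0466 CPM.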
